A study of Danio rerio with 15 samples.

Results

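The 10 annexin genes described here are anxa1a, anxa1b, anxa1c, anxa1d, anxa2a, anxa2b, anxa3b, anxa4, anxa5b and anxa6, out of 23926 gene IDs in the authors' deposited tables for the zebrafish caudal fin. They were chosen by name, with earlier results of these data known. A row with the symbol was found for 9 of them, and anxa1d was matched by its gene ID (ENSDARG00000098481), which the tables list as zgc:110283. The fins came from wild-type zebrafish of the AB strain, with no other treatment or genotype named in the labels. They were cut at 3 positions between the base and the tip, and 5 libraries each stood for the proximal, middle and distal region. Every library was a pool of fin regions from 4 fish, 2 male and 2 female, and the labels call the pools biological replicates. The series is about positional memory, the knowledge that fin cells keep of their place along the axis, and the comparisons ask which transcripts differ with position in fins for which the labels name no injury.

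Annexins are proteins that bind acidic phospholipids of the inner face of cell membranes when calcium rises. They hold membranes together or to the cytoskeleton, take part in exocytosis and endocytosis, and gather at torn plasma membrane, where they help to close the wound. In skin, annexin A1 and annexin A2 of mammals are abundant proteins of keratinocytes. Outside cells, annexin A1 of mammals acts on formyl peptide receptors and dampens inflammation, and annexin A2, together with its partner S100A10, binds plasminogen and its activator. The zebrafish genome holds several copies of some annexin genes, so that anxa1 is a group of genes that includes anxa1a, anxa1b, anxa1c and anxa1d. The genes anxa2, anxa3, anxa5 and anxa11 each have an a and a b copy.

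Levels are normalized read counts, that is, counts divided by a factor for the depth of each library, recovered for every library from the digits of the authors' deposited means. They are not corrected for gene length, so they compare positions for 1 gene and not genes with each other. A gene was called where the adjusted p of the authors' deposited DESeq test, corrected by Benjamini-Hochberg for all genes of the table, was under 0.05. Libraries are listed in a fixed order within each position that does not follow the replicate numbers of the labels.

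Of the 10 annexin genes, 4 were higher in the distal fin than in the proximal fin, 2 were lower and 4 were not called. In this comparison 17.9% of all 23404 genes were called higher and 18.1% lower, so the share of annexins called lower was near that of all genes. The 4 higher genes were anxa1b, anxa1c, anxa1d and anxa5b, and the 2 lower genes were anxa2b and anxa4. The median log2 fold change of the 10 genes, distal over proximal, was 0.06, against -0.04 over all genes. Calls among the 10 genes went in both directions, as they did over all genes. Copies of anxa1, and those of anxa2, differed in whether they were called.

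**Figure D1:**
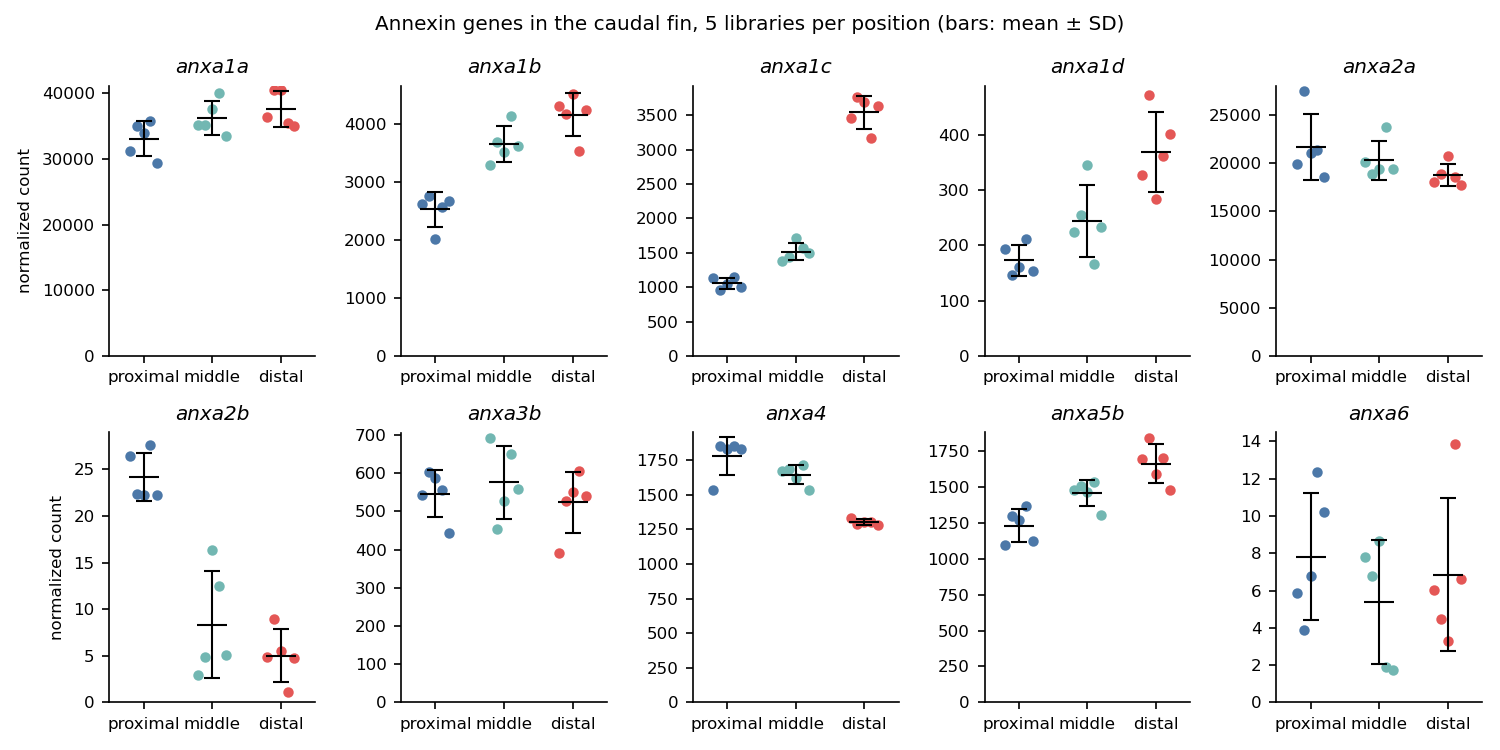
Normalized read count of each annexin gene (y axis, linear, a scale for each gene) by fin position (x axis). Points are libraries, 5 for each position, and bars give the mean ± SD. The 5 distal anxa1c libraries sit between 3171 and 3766 normalized counts, above all others, while the 5 proximal anxa2b libraries sit between 22.2 and 27.6, above all others.

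The regions are mixtures of tissues. In bulk RNA, fewer cells of a type and less RNA per cell cannot be told apart. The markers of fin tissue were present, and the summed level of 6 superficial epidermis markers ran from 78245 to 111802 normalized counts in distal, 58101 to 82862 in middle and 51503 to 64757 in proximal libraries. Most of this sum came from evpla (means of 44806 in distal and 24572 in proximal libraries) and ppl (44888 and 30841). Of the 8 measured genes of that list, 4 were called higher in the distal than in the proximal fin (krt4, cldne, evpla and ppl). The 2 called lower were krt91 (fold of 0.720, adjusted p = 4.46e-05 in the authors' deposited table) and cyt1 (fold of 0.241, adjusted p = 3.33e-05). The sum leaves out krt4 and krt91, whose counts had no single solution at every position. The sum of 5 basal epidermis markers was highest in the middle fin, with means of 41870, 82308 and 69626 from proximal to distal, and 3 of 7 measured genes were higher in the distal than in the proximal fin and 1 was lower. This sum leaves out itga6b and itgb4 for the same reason, and neither was called in any comparison. The summed genes were not alike. Means of krtt1c19e (5025, 21583 and 1985), col17a1a (3984, 14813 and 5586) and tp63 (6142, 6935 and 5304) were highest in the middle fin. Those of cldni (6707, 8644 and 13369) and col17a1b (20012, 30333 and 43382) were highest in the distal fin. Dermal fibroblast markers summed to a mean of 78164 in distal and 54605 in proximal libraries (6 higher and 1 lower of 7). Mucous cell markers went the other way, with 208 to 817 in distal and 28052 to 32703 in proximal libraries (3 lower of 3), as did ionocyte markers, with 11.2 to 20.3 in distal and 153 to 232 in proximal libraries (5 lower of 5), and leukocyte markers, with 1323 to 2001 in distal and 2056 to 3018 in proximal libraries (7 lower of 8). Pigment cell markers summed to 3555 to 5140 in distal and 1077 to 1491 in proximal libraries (3 higher of 3), with means of 1263, 1828 and 4428 from proximal to distal. Osteoblast markers had a mean of 6876 in distal and 3974 in proximal libraries with ranges that overlapped (3 higher and 1 lower of 6), and endothelial markers one of 2212 in distal and 1736 in proximal libraries (3 higher and 1 lower of 5). Schwann cell and lateral line markers summed to 618 in distal and 1108 in proximal libraries on average (1 higher and 2 lower of 4), and skeletal muscle markers to 13.2 in distal and 90.2 in proximal libraries (2 lower of 2). Among the markers of these 11 lists that were measured in all 3 comparisons, none was at 0 at every position. This leaves out krt17, fbn1, spdef, acta1b and myhz2. Several of these sums thus differed between the same positions as the annexins, and their part in the annexin differences was not tested.

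The annexin with the largest rise towards the tip was anxa1c (ENSDARG00000104359). It had 1136, 963, 1052, 1144 and 1003 normalized counts in the 5 proximal libraries, 1375, 1438, 1709, 1568 and 1496 in the middle libraries, and 3457, 3766, 3697, 3171 and 3639 in the distal libraries. The 3 positions did not overlap. The lowest middle library stood above every proximal one, and the lowest distal library was well above the highest middle one. The means were 1059 ± 79.9, 1517 ± 129 and 3546 ± 239 from proximal to distal (SD, n = 5 each). In the authors' deposited tables anxa1c was 3.35-fold higher in the distal than in the proximal fin (adjusted p = 8.29e-54), 1.43-fold higher in the middle than in the proximal fin (adjusted p = 7.97e-05) and 2.32-fold higher in the distal than in the middle fin (adjusted p = 1.07e-28). These 3 comparisons share libraries. Of the 10 annexins, anxa1c was the 1 gene that also stands in the authors' deposited table of monotonic genes, which holds 1144 genes.

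For anxa1c the steps between neighbouring positions differed in size. These steps were not scaled by the distance between the positions. On the log2 scale it was higher by 1.23 between the distal and middle fin, against 0.52 between the middle and proximal fin. The difference between the steps was 0.71 (SE 0.13) and passed a limma contrast on the recovered counts, adjusted over all 18826 genes fitted (adjusted p = 0.000797). This contrast was chosen after the values were seen. It was passed by 11.4% of all genes fitted, and among the 9 annexins that could be fitted by anxa1c alone. The other 8 had adjusted p between 0.157 and 0.962 by the same limma contrast, which leaves their steps undecided rather than equal. Uneven steps were not particular to anxa1c among all annexins. Of the 7 further annexin genes described below, anxa13 (0.70, adjusted p = 0.0267) and anxa5a (-4.71, adjusted p = 3.24e-05) passed this limma contrast, and the rest did not.

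The second member of the group, anxa1b (ENSDARG00000100095), had 2623, 2762, 2018, 2568 and 2682 normalized counts in the proximal libraries, 3292, 3700, 3525, 4138 and 3621 in the middle libraries, and 4312, 4184, 4530, 3539 and 4254 in the distal libraries. All proximal libraries lay below all others, while the middle and distal libraries overlapped, since 1 distal library at 3539 was below 3 of the 5 middle ones. By the authors' deposited tables, anxa1b was 1.65-fold higher in the distal than in the proximal fin (adjusted p = 2.80e-10) and 1.45-fold higher in the middle than in the proximal fin (adjusted p = 2.41e-05). Its distal level was 1.13-fold the middle level, which was not called in the authors' deposited table (adjusted p = 0.213).

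The member of the group with the fewest reads was anxa1d, which had 194, 146, 161, 211 and 153 normalized counts in the proximal libraries, 224, 254, 346.5, 167 and 233 in the middle libraries, and 327, 472, 283, 363 and 403 in the distal libraries. The distal libraries were all above the proximal ones. The middle libraries were the most scattered of the 3 positions relative to their mean and overlapped with both ends. According to the authors' deposited tables, anxa1d was 2.14-fold higher in the distal than in the proximal fin (adjusted p = 5.99e-08) and 1.499-fold higher in the distal than in the middle fin (adjusted p = 0.0206). A 1.42-fold higher level in the middle than in the proximal fin was not called in the authors' deposited table (adjusted p = 0.185).

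The gene anxa1a (ENSDARG00000026726) was nearly level. It had 31255, 34993, 34007, 35766 and 29434 normalized counts in the proximal libraries, 35141, 35180, 37648, 40022 and 33409 in the middle libraries, and 36413, 40542, 40475, 35463 and 34941 in the distal libraries. All 3 positions overlapped, with the 2 lowest libraries in the proximal fin. The authors' deposited tables gave it a fold of 1.14 for distal over proximal (adjusted p = 0.172), 1.1 for middle over proximal (adjusted p = 0.612) and 1.03 for distal over middle (adjusted p = 0.855). A limma fit to the recovered counts did call its distal level higher than its proximal level, with a log2 difference of 0.18 (adjusted p = 0.0298). With each library left out in turn the limma adjusted p ran between 0.0201 and 0.0871, and 11 of the 15 fits made the call. It was lost without proximal library 1 or 5 and without distal library 2 or 3, so that this small difference rested on the test used and on single libraries.

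**Figure D2:**
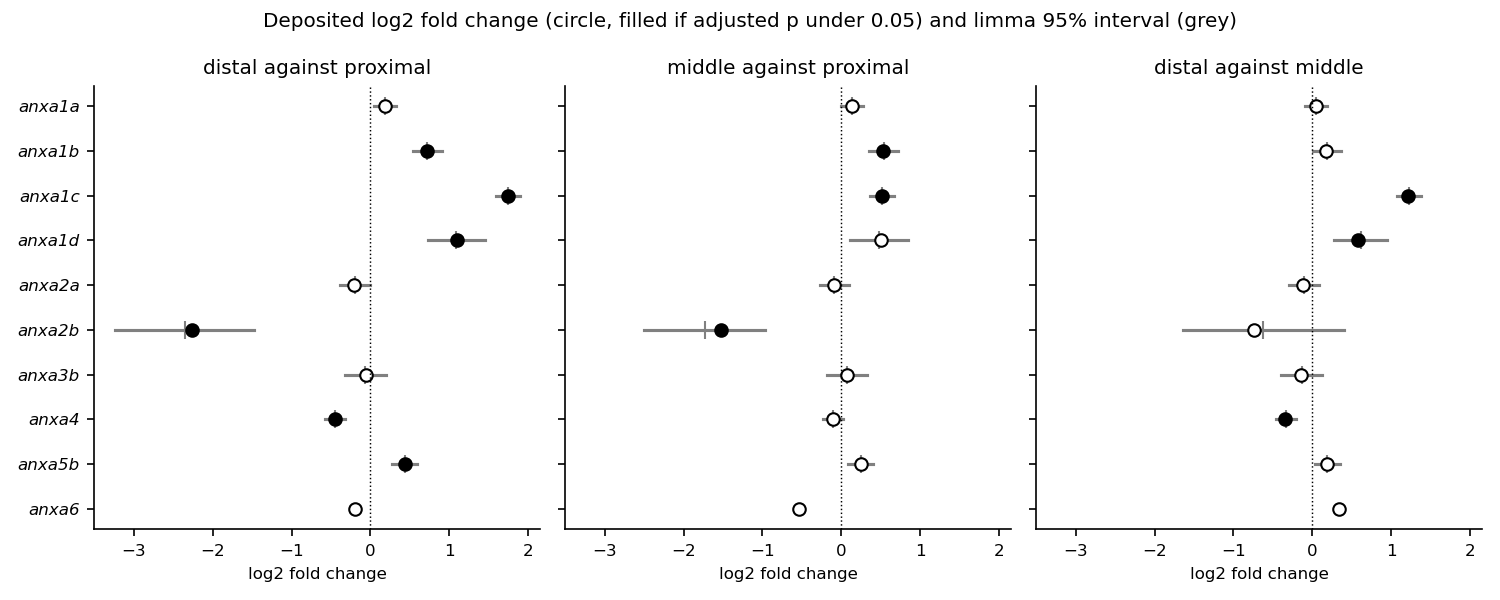
Deposited log2 fold change (x axis) of each annexin gene (rows) in the 3 comparisons, filled where the authors' adjusted p was under 0.05. Grey lines are 95% intervals of the limma fit to the recovered counts, with a tick at its estimate; anxa6 was not fitted. The circles of anxa1c lie right of 0 in all 3 panels, at 1.74, 0.52 and 1.22, and anxa2b and anxa4 lie left of 0.

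The members of the anxa1 group were then set against each other within each library, where a difference in depth cancels. The value is the log2 of the ratio of 2 normalized counts, each with a pseudocount of 1 added. Every pair of anxa1 genes was taken, together with the a and b copies of anxa2, anxa3 and anxa5, over 3 comparisons, which made 27 exact two-sided permutation tests chosen after the values were seen. With 5 libraries against 5, the smallest p such a test can give is 0.00794.

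The ratio of anxa1c to anxa1b averaged -0.23 ± 0.08 in distal libraries and -1.25 ± 0.23 in proximal libraries (SD, n = 5 each), a difference of 1.02 on the log2 scale (exact p = 0.00794, adjusted 0.0153 over the 27 tests). The same ratio was -1.27 ± 0.14 in middle libraries, and so differed from proximal libraries by -0.02 (exact p = 0.873, adjusted 0.873). Both genes were higher in the middle than in the proximal fin, by the 1.45-fold and 1.43-fold given above. Between the distal and middle fin anxa1c alone of the pair was called, the ratio differed by 1.04 (exact p = 0.00794, adjusted 0.0153), and the 5 distal ratios lay above all 10 others.

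Against anxa1d the picture was less sharp. The ratio of anxa1c to anxa1d was 3.28 ± 0.28 in distal libraries and 2.62 ± 0.13 in proximal libraries (exact p = 0.00794, adjusted 0.0153), and their ranges did not overlap. Set against the 2.66 ± 0.34 of middle libraries, the distal ratio differed by 0.62 (exact p = 0.0317), which missed the threshold after adjustment (0.0504). The ratio of anxa1b to anxa1d did not pass in any comparison, with differences of -0.36, 0.06 and -0.42 for distal over proximal, middle over proximal and distal over middle (exact p = 0.111, 0.833 and 0.127, adjusted 0.143, 0.873 and 0.156).

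Relative to anxa1a, the nearly level member, all 3 other copies were higher in the distal than in the proximal libraries. The difference in log2 ratio was 1.56 for anxa1c, 0.90 for anxa1d and 0.54 for anxa1b, each with the smallest exact p of 0.00794 (adjusted 0.0153). In the middle against the proximal fin the ratio to anxa1a was higher by 0.38 for anxa1c and by 0.40 for anxa1b (exact p = 0.00794, adjusted 0.0153, for both). For anxa1d the same difference was 0.34 with wider scatter (exact p = 0.143, adjusted 0.168).

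**Figure D3:**
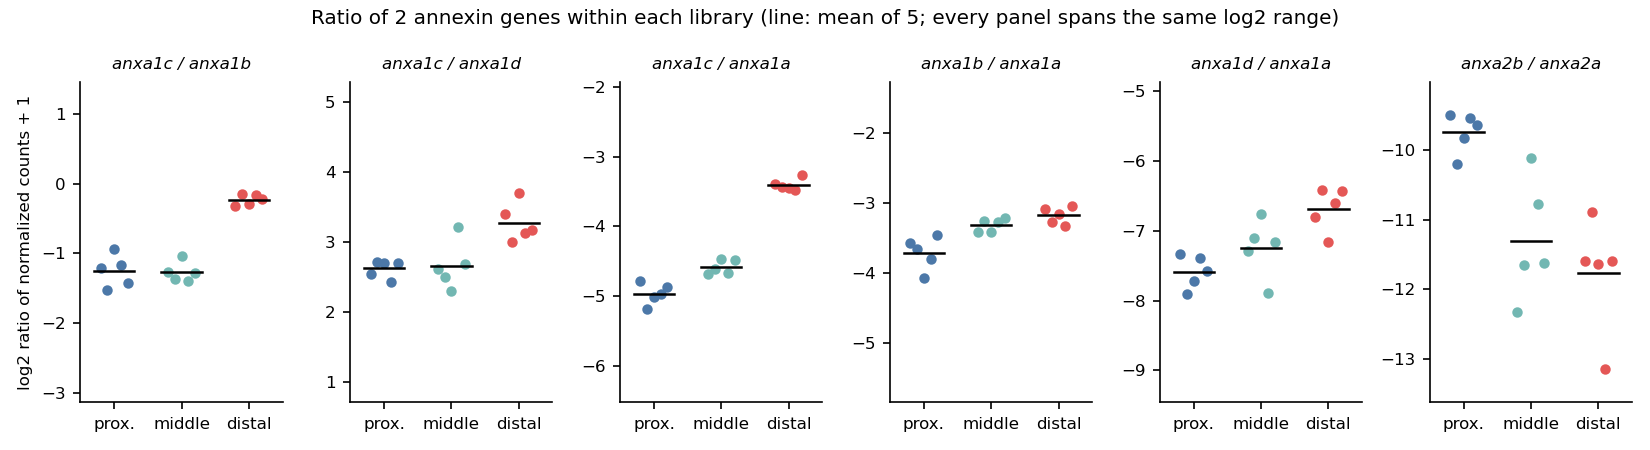
Log2 ratio of the normalized counts (plus 1) of a pair of annexin genes within each library (y axis; every panel spans the same range) by fin position (x axis). Points are libraries, 5 for each position, and lines are means. In the first panel the distal libraries average -0.23, while the middle and proximal libraries average -1.27 and -1.25.

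The genes anxa1d, anxa1c and anxa1b lie next to each other, in this order and with 0 other protein-coding genes between them, in the RefSeq annotation of the assembly GRCz12tu. That assembly is not the one the reads were aligned to, so it is used only for gene order and, below, for overlaps of gene models. Of the 5 protein-coding neighbours on the anxa1d side, 3 were measured, and all were lower in the distal than in the proximal fin in the authors' deposited table. By DESeq they were ptgs1, which encodes a cyclooxygenase of prostaglandin synthesis (2.17-fold lower, adjusted p = 0.000403), the keratin gene krt1-c5 (3.20-fold lower, adjusted p = 0.00146) and the zinc finger gene zbtb26 (1.40-fold lower, adjusted p = 0.00446). The other 2, lhx6b and LOC101882342, had no matching row and are not analysed here.

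On the anxa1b side, the authors' deposited table gave the nearest gene, pmpca, which encodes a mitochondrial processing peptidase subunit, a fold of 0.917 for distal over proximal (adjusted p = 0.481). The next, inpp5e, which encodes a phosphoinositide phosphatase, was 1.34-fold higher in the same authors' deposited DESeq table (adjusted p = 0.00755). Further out, tor2a was not called in the authors' deposited table (adjusted p = 0.682), and sh2d3cb was 1.81-fold lower (adjusted p = 0.000364). On either side of the 3 annexins, the nearest measured neighbour was thus not called higher. These neighbours were looked up after the values of the annexins were seen.

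**Figure D4:**
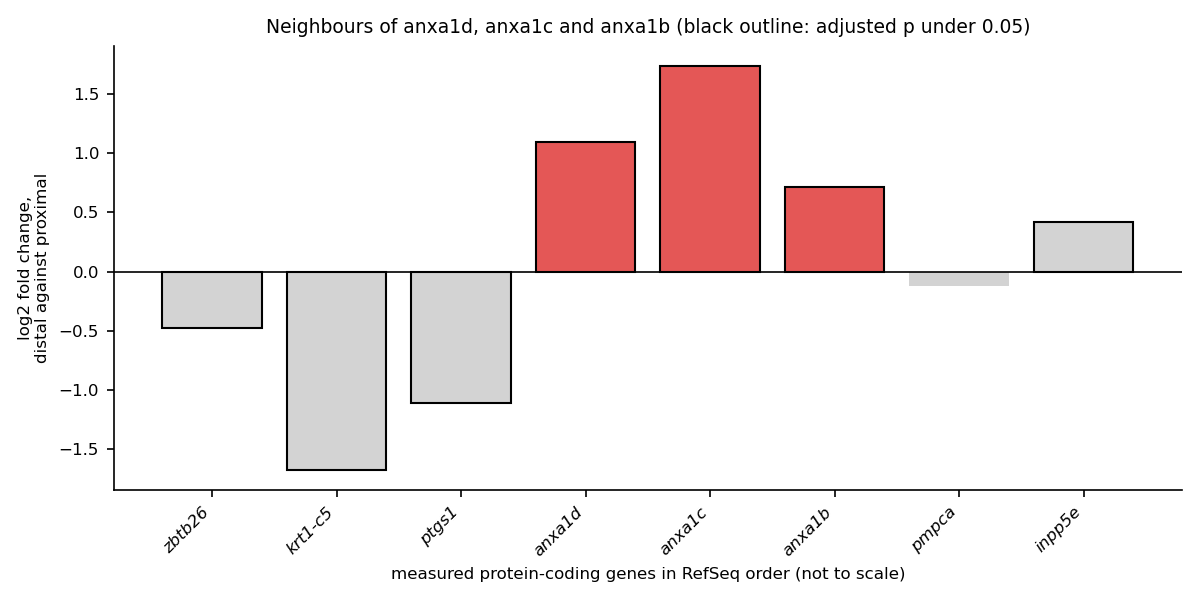
Deposited log2 fold change of distal over proximal (y axis) for anxa1d, anxa1c and anxa1b (red) and measured protein-coding genes on either side (grey), as far as inpp5e, in RefSeq order along the x axis, not to scale. Black outlines mark an adjusted p under 0.05. The 3 red bars reach 1.1, 1.74 and 0.72, and the nearest measured genes on either side, ptgs1 and pmpca, lie below 0.

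Reads can be shared among close copies. How the authors counted reads that fit more than 1 gene, and their strand setting, is not given in the sources used here, so the values of anxa1b, anxa1c and anxa1d, and of anxa2a and anxa2b, are uncertain to that extent. In the RefSeq gene models of GRCz12tu, a long noncoding RNA gene overlaps with both anxa1b and anxa1c. There, aak1b overlaps with anxa4, uchl1 with anxa5b, and 3 protein-coding genes with anxa6 (n4bp3, LOC141377606 and LOC141377605). Among the further annexin genes described below, gpr158a overlaps with anxa13, and long noncoding RNA genes overlap with anxa13l and anxa14. Without the strand such reads cannot be told apart. Whether these overlaps exist in the annotation used for counting was not tested.

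The anxa2 pair split. The a copy, anxa2a (ENSDARG00000003216), had 19880, 27505, 21042, 21374 and 18521 normalized counts in proximal libraries, 20081, 18844, 19340, 23764 and 19344 in middle libraries, and 18004, 18879, 20713, 18579 and 17754 in distal libraries. The positions overlapped throughout. In the authors' deposited tables its fold was 0.867 for distal over proximal (adjusted p = 0.166), 0.937 for middle over proximal (adjusted p = 0.845) and 0.921 for distal over middle (adjusted p = 0.448), none of them called. The limma log2 difference of distal over proximal was -0.19, with a 95% interval from -0.38 to -0.0067 and an adjusted p of 0.0777. With each library left out in turn, the limma adjusted p ran between 0.0278 and 0.240, and 1 of the 15 fits called anxa2a lower.

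Its paralog anxa2b (ENSDARG00000053625) had few reads and the largest fold change among the 10 genes. It had 26.4, 22.3, 22.2, 27.6 and 22.3 normalized counts in proximal libraries, 2.92, 4.85, 16.4, 12.5 and 5.14 in middle libraries, and 4.83, 8.98, 5.49, 1.07 and 4.73 in distal libraries. Every proximal library was above every other library. In reads, these were 126 over the 5 proximal libraries, 44 over the middle and 23 over the distal libraries, so that counting error weighs on the middle and distal values. The authors' deposited tables put anxa2b 4.82-fold lower in the distal than in the proximal fin (adjusted p = 2.26e-07) and 2.89-fold lower in the middle than in the proximal fin (adjusted p = 0.000384). Between the distal and middle fin its fold was 0.597 and was not called in the authors' deposited table (adjusted p = 0.484).

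Within libraries the log2 ratio of anxa2b to anxa2a was lower by 2.03 in distal than in proximal libraries (-11.8 ± 0.82 against -9.74 ± 0.29, exact p = 0.00794, adjusted 0.0153). It was lower by 1.56 in middle than in proximal libraries (-11.3 ± 0.86 against -9.74 ± 0.29, exact p = 0.0159, adjusted 0.0286). The distal and middle ratios differed by -0.47 (exact p = 0.357, adjusted 0.402).

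The gene anxa4 (ENSDARG00000036456), whose product in mammals is found in secretory epithelia, was lower towards the tip. It had 1531, 1849, 1831, 1850 and 1831 normalized counts in proximal libraries, 1669, 1687, 1617, 1714 and 1537 in middle libraries, and 1332, 1289, 1302, 1304.5 and 1279 in distal libraries. All 5 distal libraries were below all others, and the proximal library at 1531 stood apart from the other 4 of its position. The authors' deposited tables gave a 1.37-fold lower level in the distal than in the proximal fin (adjusted p = 0.000204) and a 1.27-fold lower level in the distal than in the middle fin (adjusted p = 0.00668). In the middle fin, anxa4 was at 0.926 of the proximal level, and this was not called in the authors' deposited table (adjusted p = 0.718).

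The gene anxa5b (ENSDARG00000016470) encodes a form of annexin A5, which binds phosphatidylserine and forms lattices on damaged membrane. It had 1094, 1299, 1272, 1367 and 1124 normalized counts in proximal libraries, 1477, 1508, 1463, 1534 and 1301 in middle libraries, and 1696, 1841, 1591, 1703 and 1477 in distal libraries. The distal libraries were all above the proximal ones, and the middle libraries overlapped with both. By the authors' deposited table it was 1.35-fold higher in the distal than in the proximal fin (adjusted p = 0.000513). The smaller differences, 1.18-fold for middle over proximal and 1.13-fold for distal over middle, were not called in the authors' deposited tables (adjusted p = 0.197 and 0.228). By limma the difference of middle over proximal passed (adjusted p = 0.0383), and it did so in 8 of the 15 fits with 1 library left out. The call was lost without proximal library 1, 3 or 5 and without middle library 1, 2, 3 or 4, with a limma adjusted p of up to 0.103.

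The remaining 2 members were not called in any comparison. For anxa3b (ENSDARG00000044254), proximal libraries ran from 445 to 604 normalized counts, middle libraries from 453 to 692 and distal libraries from 391 to 607. All positions overlapped, and the adjusted p in the authors' deposited tables was 0.816 for distal over proximal, 0.898 for middle over proximal and 0.579 for distal over middle. The limma estimate of the log2 difference of distal over proximal was -0.06, with a 95% interval from -0.33 to 0.20. The sparse anxa6 (ENSDARG00000013335), which encodes an annexin with a doubled core that binds membranes to the cytoskeleton, ran from 3.89 to 12.4 normalized counts in proximal, 1.71 to 8.66 in middle and 3.29 to 13.9 in distal libraries. It had 41, 28 and 32 reads in all at these positions, too few for the limma fit, and no difference between positions was detectable at this depth.

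Both shorter steps along the fin had the same number of calls among the 10 genes, though not for the same genes throughout. Between the middle and proximal fin, 2 were higher (anxa1b and anxa1c), 1 was lower (anxa2b) and 7 were not called, where 3.51% of all 23556 genes were called higher and 3.80% lower. Between the distal and middle fin, 2 were higher (anxa1c and anxa1d), 1 was lower (anxa4) and 7 were not called, where 13.3% of all 23232 genes were called higher and 12.9% lower. The median log2 fold change of the 10 genes was 0.11 in both comparisons, against -0.01 and -0.02 over all genes. By level alone, 6 of the 10 annexins had distal and proximal libraries that did not overlap, namely the 6 that were called, and this held for 36.1% of the 18826 genes in the limma fit. That limma fit called 7 of 9 annexins between the distal and proximal fin, where it called 51.5% of all genes in either direction.

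The tables hold 7 further annexin genes, of which 3 were higher in the distal than in the proximal fin, 3 were lower and 1, anxa11b, was not called (adjusted p = 0.118 in the authors' deposited table). Of all genes, 17.9% were called higher and 18.1% lower in this comparison. The higher ones were anxa3a, anxa11a, whose product in mammals couples RNA granules to lysosomes, and anxa13, known in mammals from intestinal epithelium. In the authors' deposited table anxa3a was 1.70-fold higher (adjusted p = 6.21e-10), with 865 ± 108 normalized counts in distal and 510 ± 41.1 in proximal libraries. The fold in the same authors' deposited DESeq table was 1.46 for anxa11a (adjusted p = 2.08e-06) and 1.45 for anxa13 (adjusted p = 0.000122). For anxa13 the groups overlapped, since 1 proximal library reached 401 and 1 distal library was at 386.

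The lower ones were anxa14, anxa13l and anxa5a. Mean levels of anxa14, which the tables list as zgc:101785, were 57.4 ± 9.02, 33.4 ± 7.52 and 7.77 ± 3.70 normalized counts from proximal to distal (SD, n = 5 each), and the authors' deposited DESeq table put it 7.38-fold lower in the distal than in the proximal fin (adjusted p = 2.01e-20). For anxa13l the authors' deposited table gave a 2.54-fold lower level (adjusted p = 1.19e-11). The mean of anxa5a was highest in the middle fin, at 7.50 ± 2.36, 15.8 ± 1.76 and 1.26 ± 1.76 normalized counts from proximal to distal, and 2 of the 5 distal libraries were at 0. Its higher level in the middle than in the proximal fin was not called in the authors' deposited table (2.11-fold, adjusted p = 0.0797), while the lower level in the distal than in the middle fin was (12.6-fold lower, adjusted p = 2.13e-08). By the authors' deposited table it was 5.94-fold lower in the distal than in the proximal fin (adjusted p = 0.00402), on 6 reads in all distal libraries and 39 in all proximal ones.

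So the a and b copies differed between the distal and proximal fin in anxa3 and anxa5 as they did in anxa2. For anxa11a and anxa11b, with deposited folds of 1.46 and 1.16 for distal over proximal, the ratio was not tested. The log2 ratio of anxa3b to anxa3a was lower by 0.83 in distal than in proximal libraries (-0.73 ± 0.25 against 0.10 ± 0.23, exact p = 0.00794, adjusted 0.0153). Its differences of -0.36 for middle over proximal (exact p = 0.0794, adjusted 0.113) and -0.46 for distal over middle (exact p = 0.0317, adjusted 0.0504) did not pass. The ratio of anxa5b to anxa5a was higher by 2.59 in distal than in proximal libraries (exact p = 0.00794, adjusted 0.0153), with anxa5a near 0 counts in the distal ones, where the pseudocount holds the ratio down. It was lower by 0.78 in middle than in proximal libraries (6.44 ± 0.21 against 7.22 ± 0.43) and higher by 3.37 in distal than in middle libraries, each with an exact p of 0.00794 (adjusted 0.0153).

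Genes whose products work with annexins were counted from 4 lists, chosen with earlier results of these data known, and their counts stand beside the 17.9% of all genes called higher and 18.1% called lower in the distal than in the proximal fin. S100 proteins are small calcium-binding partners of annexins, and S100A10 is the partner of annexin A2. Of 14 listed S100 genes 13 were measured, and by the authors' deposited test 4 were higher in the distal than in the proximal fin, 2 were lower and 7 were not called. The median log2 fold change was 0.15. The largest rise was that of icn2, a fish epidermal S100 gene of the ictacalcin type, at 9001 ± 363 normalized counts in distal and 4363 ± 381 in proximal libraries (2.06-fold, adjusted p = 3.61e-21 in the authors' deposited table). The others were s100u (1.83-fold, adjusted p = 2.03e-11 in the authors' deposited table), s100w (1.71-fold, adjusted p = 2.87e-11) and s100z (1.67-fold, adjusted p = 0.000503). The 2 lower genes in the authors' deposited table were s100t (2.01-fold lower, adjusted p = 0.0239) and s100b, at 0.885 normalized counts in distal and 6.50 in proximal libraries (adjusted p = 0.00354). The partner of annexin A2, s100a10b, singled out after its values were seen, had a fold of 1.11 and was not called in the authors' deposited table (adjusted p = 0.276).

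Of 26 listed genes of plasma membrane repair 23 were measured, and by the authors' deposited test 10 were higher in the distal than in the proximal fin, 5 were lower and 8 were not called, with a median log2 fold change of 0.04. The higher ones were led by chmp4c, an ESCRT subunit that pinches membranes (1047 ± 187 normalized counts in distal and 476 ± 27.4 in proximal libraries, 2.20-fold, adjusted p = 4.14e-11 in the authors' deposited table). Next in the authors' deposited table came the calpain small subunit gene capns1b (1.95-fold, adjusted p = 9.46e-18), the ESCRT gene chmp4bb (1.72-fold, adjusted p = 1.89e-11) and vps4b, whose ATPase takes ESCRT filaments apart (1.60-fold, adjusted p = 3.91e-09). Among the lower ones in the authors' deposited table were syt7b, a calcium sensor of lysosome exocytosis (2.38-fold lower, adjusted p = 5.68e-07), and myof, which encodes the dysferlin relative myoferlin (1.43-fold lower, adjusted p = 1.32e-05). The penta-EF-hand gene pdcd6 was 1.24-fold lower in the authors' deposited table (adjusted p = 0.0260), and the 2 others that were lower, syt7a and ehd2a, were under 20 normalized counts on average.

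Of 9 listed genes of the plasminogen system 8 were measured, of which 2 were higher, 1 was lower and 5 were not called, with a median log2 fold change of -0.14. Among the higher genes was serpine2, which encodes an inhibitor of serine proteases, at 956 ± 26.6 normalized counts in distal and 579 ± 147 in proximal libraries (1.65-fold, adjusted p = 1.13e-07 in the authors' deposited table). The lower gene was plat, which encodes tissue plasminogen activator (1.37-fold lower, adjusted p = 0.000315 in the authors' deposited table).

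All 14 listed genes of phospholipase A2, eicosanoid synthesis and the resolution of inflammation were measured, of which 3 were higher, 5 were lower and 6 were not called, with a median log2 fold change of -0.22. The receptor gene fpr1, of the formyl peptide receptor type through which annexin A1 acts in mammals, had 181 ± 16.4 normalized counts in distal and 110 ± 18.1 in proximal libraries (1.64-fold, adjusted p = 1.64e-05 in the authors' deposited table). Higher as well in the authors' deposited table were the cyclooxygenase gene ptgs2a (2.04-fold, adjusted p = 0.00596), with a wide scatter of 2208 ± 696 in distal and 1083 ± 440 in proximal libraries, and the chemerin receptor gene cmklr1 (1.49-fold, adjusted p = 0.00341). Lower in the authors' deposited table were the prostaglandin E synthase gene ptges (2.45-fold lower, adjusted p = 6.23e-17), ptgs1 (2.17-fold lower, adjusted p = 0.000403), the leukotriene B4 receptor gene ltb4r (1.79-fold lower, adjusted p = 0.00120), the leukotriene A4 hydrolase gene lta4h (1.40-fold lower, adjusted p = 0.0137) and alox12.

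Over all 16449 genes with a mean of at least 20 normalized counts, the pattern most like that of anxa1c across the 15 libraries was that of unc5b, a netrin receptor gene (Pearson r = 0.993 of log2 normalized counts plus 1). It had 175 ± 13.3, 275 ± 41.0 and 833 ± 107 normalized counts from proximal to distal. Next were the sugar phosphate transporter gene slc37a1 (r = 0.993; 1117 ± 39.8, 1502 ± 39.2 and 2518 ± 168) and csrp2, a LIM domain gene (r = 0.992; 321 ± 12.3, 523 ± 42.4 and 1342 ± 83.3). For anxa2b the most alike were ephx2, an epoxide hydrolase gene (r = 0.912), the RNA helicase gene ddx43 (r = 0.910) and si:dkey-250i3.3 (r = 0.905). Each of these differed far less between positions than anxa2b. From proximal to distal, ephx2 was at 560 ± 19.3, 519 ± 28.7 and 487 ± 24.6 normalized counts. The means of ddx43 were 338, 285 and 259, and those of si:dkey-250i3.3 were 50.1, 43.5 and 38.8. All these genes share the 15 libraries and their depth with the annexins, and the correlations are a description.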

How the data were processed

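Total RNA from 3 positions of the caudal fin of AB zebrafish, 5 pooled libraries each, was depleted of ribosomal RNA and read as paired ends, per the labels. TopHat2 2.0.13, HTSeq, DESeq and GRCz10 are named in the submitters' processing notes. The annotation, the strand and the filters of the reads: not given in the sources used here. Per the file headers, the authors deposited 3 pairwise tables and a table of monotonic genes. They hold 1 signal value per position (the mean normalized count), the fold (a ratio), its log2, and a p-value with its adjusted p-value, all as deposited by the authors. The deposited score of the monotonic table was not used.

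The members and lists were chosen with earlier results of these data known. Named were all annexins and, per partner list, the called genes with a mean of at least 20, at most 4 in each direction. Named outside this rule were s100b, syt7a and ehd2a (called, with a mean under 20), alox12 (beyond the 4) and s100a10b (not called). The 5 counts behind each mean were recovered by lattice reduction from the digits of the same position's mean in both of its pairwise tables. Of 22771 genes in all 3 tables, 22737 had 1 solution at every position, and 34 did not and were left out. The means of the authors' monotonic table were not used to recover the counts, but part of its genes set the size factors over all 3 positions. Its other genes served as a check. Their means lay within a relative error of 1e-13 of the recovered value for all genes checked (570 proximal, 570 middle and 569 distal). In simulated data every single solution was right (22740 genes for the proximal, 22750 for the middle and 22739 for the distal fin). The simulation started from the size factors read from the real data, so it did not test how these were found. The libraries held 9879928 to 13380843 reads over these genes. The normalized counts use the size factors over all 3 positions.

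The main test is the authors' DESeq. The alternative was limma 3.58.1 in R 4.3.3 with voom weights, run on the recovered counts of all 15 libraries together for the 18826 genes that reached 10 reads in 5 or more libraries. It was tested first on simulated data, and was repeated with no filter, with 2 other scalings, with 2 positions at a time, and with each library left out. Stricter thresholds were an adjusted p under 0.01 and a fold of at least 1.5. The contrast of steps, the ratio tests and the neighbours were added after the values were seen. The labels call the pools biological replicates, and p-values set a difference between positions against the spread between these pools. Some genes of the lists and neighbours are not reported here.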

Additional observations from a re-analysis of the deposited data

Results flagged for a closer look

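In 3 of 30 groups of 5 libraries (10 genes at 3 positions), 1 library stood apart from the other 4 by more than Dixon's 95% critical value, where chance gives about 1 in 20. For anxa1b, proximal library 3 was the lowest of its position at 2018 normalized counts, while the other 4 lay between 2568 and 2762. For anxa2a, middle library 4 was the highest at 23764, while the others lay between 18844 and 20081. For anxa4, proximal library 1 was the lowest at 1531, while the others lay between 1831 and 1850. The calls of anxa1b and anxa4 between the distal and proximal fin were made by limma in 15 of 15 fits with 1 library left out, these libraries included.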

How the results depend on the processing

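No paired analysis was possible because the recovered libraries carry no replicate numbers of the labels. A fold of at least 1.5 left 3 annexins higher and 1 lower in the distal than in the proximal fin (otherwise 4 and 2). It left 0 higher in the middle than in the proximal fin (otherwise 2). Between the distal and middle fin it left 1 higher and 0 lower (otherwise 2 and 1). An adjusted p under 0.01 also left 1 annexin higher in the distal than in the middle fin. With positions scaled to equal totals, limma called 4 annexins higher in the middle than in the proximal fin. With library totals as the scale, limma called 3 annexins lower in the distal than in the proximal fin (otherwise 2). Among the lists between the distal and proximal fin, a fold of at least 1.5 left 4 of 10 membrane repair genes higher and 3 of 5 lower, 0 of 1 plasminogen gene lower, and 3 of 5 eicosanoid genes lower. An adjusted p under 0.01 left 1 of 2 S100 genes, 2 of 5 membrane repair genes and 3 of 5 eicosanoid genes lower. With equal totals limma called 1 S100 gene lower and 5 eicosanoid genes higher, against 3 by the authors' test. With 1 library left out, limma called 1 to 2 S100 genes lower. The causes were not tested. Uncalled log2 differences near 0 changed sign: anxa3b, distal over proximal, was 0.0024 with equal totals and -0.14 to 0.033 with 1 library left out, anxa3b, middle over proximal, -0.0048 to 0.15, and anxa2a, middle over proximal, -0.15 to 0.0020. Of the other values of single annexins under an alternative, 502 kept direction and side of the threshold and 35 passed it newly. Over all genes, limma called 9694 between the distal and proximal fin. No scaling moved the median of all genes by 0.1 (log2). Depth limits anxa2b and anxa6, with 23 and 32 reads over the distal libraries.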
